A study of Mus musculus with 6 samples.

Results

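The cell cycle genes described here are 48 named members of the 38293 genes in the count files, chosen by symbol. They comprise 15 S-phase genes, 28 mitotic genes and 5 growth-linked chromatin and tubulin genes, and all 48 were found in the files. The mitotic genes were further divided into a strict list of 22 and 6 wider genes (Ube2s, Cks1b, Cks2, Kpna2, Smc2 and Smc4), which are also made outside division. Their counts were followed by group and across microglia, dual-marker, monocyte-derived, dendritic and T/NK cells.

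The cells were CD11b+ cells from the spinal cord of C57BL/6 mice 10 weeks old, from healthy animals or from animals with experimental autoimmune encephalomyelitis (EAE), in which immunisation with the myelin peptide MOG35-55 makes T cells attack myelin. EAE animals were taken at disease onset, at clinical score 1. Live cells were stained with DCFDA at 10 µM, a dye that fluoresces when oxidised by reactive oxygen species (ROS), and sorted on CD11b and the dye. There were 3 groups of 2 libraries: EAE ROS+, EAE ROS- and healthy ROS-. All groups share the strain, age, dissociation, dye and CD11b sort, and no ROS+ gate of healthy mice is among the samples. The labels do not state how many animals each library holds or whether replicates came from separate animals, so p-values measure only the spread between these libraries.

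A cell that enters the cycle first copies its DNA in S phase and then divides in mitosis. The MCM proteins form the helicase that opens the replication fork, PCNA clamps the polymerase to it, and Rrm2, Tyms, Tk1 and Dut supply or guard the nucleotides. In mitosis, the kinase Cdk1 with cyclins B and A drives entry, Top2a untangles the chromosomes, the Aurora kinases and Plk1 steer the spindle, and Cdc20 and Ube2c act with the anaphase-promoting complex to destroy the cyclins. Resident microglia renew slowly in the healthy nervous system and can divide during inflammation, whereas monocyte-derived cells enter the tissue from blood.

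The S-phase and mitotic genes are classically read by different promoter elements: E2F sites for S phase, and the cell cycle genes homology region (CHR) with CCAAT boxes for mitosis. RefSeq promoter windows on GRCm38.p6 were matched for 40 of 48 members; Aurkb, H2afz, Mcm4, Tpx2, Smc4, Stmn1, Ccna2 and Gins2 were not matched. The 250 bases before each annotated start were searched on both strands for E2F letters (TTTCCCGC, TTTCGCGC, TTTGCCGC or TTTGGCGC), CHR letters (TTTGAA) and CCAAT. E2F letters stood in 4 of 13 S-phase and 1 of 19 strict mitotic windows, against 1.91% of all 27025 promoters. CHR letters stood in 1 of 13 S-phase and 7 of 19 strict mitotic windows, against 16.3% of all promoters. CCAAT stood in 8 of 13 and 17 of 19, against 34.5%, and windows with both CHR and CCAAT were 13 of the 40 members and 5.73% of all. The windows below are of an S-phase gene with E2F letters and of 4 mitotic genes that hold both CHR and CCAAT letters and recur in the results; Cdk1 holds E2F letters too. Each is written 5′ to 3′ on the gene's strand, with searched letters in capitals on either strand. The first E2F match of Mcm6 overlaps the second, and a pair of CCAAT matches overlap in Ube2c. A match is a description of letters and not a measured site.
Mcm6, S-phase helicase subunit (chr1:128359706-128359955, minus strand): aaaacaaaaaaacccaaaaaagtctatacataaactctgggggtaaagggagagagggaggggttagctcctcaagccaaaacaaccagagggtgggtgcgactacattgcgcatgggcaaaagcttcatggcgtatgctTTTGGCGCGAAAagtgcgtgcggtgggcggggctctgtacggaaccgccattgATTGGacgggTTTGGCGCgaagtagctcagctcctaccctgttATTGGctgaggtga
Cdk1, the mitotic kinase (chr10:69352913-69353162, minus strand): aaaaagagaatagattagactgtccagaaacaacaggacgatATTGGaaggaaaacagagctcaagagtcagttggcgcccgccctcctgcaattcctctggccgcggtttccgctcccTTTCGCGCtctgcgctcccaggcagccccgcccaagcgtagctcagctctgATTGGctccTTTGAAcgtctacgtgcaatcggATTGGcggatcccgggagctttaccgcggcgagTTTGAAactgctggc
Ccnb2, cyclin B2 (chr9:70421555-70421804, minus strand): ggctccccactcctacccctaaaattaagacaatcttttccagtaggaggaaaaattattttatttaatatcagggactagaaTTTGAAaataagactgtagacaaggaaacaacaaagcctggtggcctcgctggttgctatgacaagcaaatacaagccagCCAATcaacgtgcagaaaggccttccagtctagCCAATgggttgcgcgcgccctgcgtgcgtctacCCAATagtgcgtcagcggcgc
Ube2c, ubiquitin-conjugating enzyme of the anaphase-promoting complex (chr2:164769679-164769928, plus strand): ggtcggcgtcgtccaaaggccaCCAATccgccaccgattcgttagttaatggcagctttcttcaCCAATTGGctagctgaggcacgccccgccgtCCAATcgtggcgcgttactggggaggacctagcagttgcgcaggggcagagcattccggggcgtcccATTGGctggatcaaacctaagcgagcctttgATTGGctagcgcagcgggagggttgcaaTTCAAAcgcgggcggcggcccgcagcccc
Cdc20, activator of the same complex (chr4:118437344-118437593, minus strand): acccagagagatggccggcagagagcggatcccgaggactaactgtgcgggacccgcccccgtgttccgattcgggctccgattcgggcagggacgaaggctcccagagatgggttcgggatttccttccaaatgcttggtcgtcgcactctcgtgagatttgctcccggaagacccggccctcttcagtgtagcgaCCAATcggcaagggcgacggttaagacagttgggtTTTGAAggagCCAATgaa

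Libraries held 202 to 2233 barcodes and 915197 to 23407825 unique molecular identifiers (UMIs, each a counted transcript), with medians of 2178 to 9543 UMIs per cell. Healthy replicate 2 was the small library, at 202 cells. Pairs of libraries shared 0 to 7 barcodes. Cells were classed by marker UMIs, where a list was hit at 3 or more UMIs over 2 or more genes; a dual-marker cell hit both the microglial and the monocyte-derived lists. In EAE ROS- libraries, microglia carried 2979 and 3390 CPM (UMIs of a gene scaled to a common total per sum of cells) of their own 8 markers and 251 and 342 of the monocyte-derived ones. Dual-marker cells carried 1641 and 1601 of the microglial and 1956 and 2912 of the monocyte-derived markers. Monocyte-derived cells carried 123 and 60.8 of the microglial and 5297 and 7939 of their own. T/NK-marked cells carried 2680 and 2159 CPM of T/NK markers but also 1001 and 534 of microglial and 1543 and 2843 of monocyte-derived markers, so this class does not hold T and NK transcripts alone. Healthy microglia carried 9794 and 10458 of the microglial markers. EAE ROS- libraries held 260 and 106 microglia, 584 and 297 dual-marker, 642 and 989 monocyte-derived, 70 and 95 dendritic and 45 and 36 T/NK cells. EAE ROS+ libraries held 350 and 88 dual-marker and 1328 and 2080 monocyte-derived cells, and 3 microglia each. Healthy libraries held 1748 and 184 microglia, and replicate 2 also held 16 endothelial-marker cells.

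In the EAE ROS- gate, transcripts of mitosis were concentrated in microglia and dual-marker cells and were scarce in monocyte-derived cells. Top2a was at 63.5 and 98.3 CPM in microglia, 50.3 and 91.8 in dual-marker cells and 2.66 and 3.62 in monocyte-derived cells. Ube2c was at 54.4 and 64.1 in microglia, 35.8 and 63.8 in dual-marker cells and 1.84 and 2.46 in monocyte-derived cells. Ccnb2 was at 34.3 and 17.1, 28.2 and 35.5, and 1.63 and 1.30 in the same order. For each of these genes, both microglia and both dual-marker values lay above both monocyte-derived values. Log2 differences of microglia from monocyte-derived cells, fitted with library as a term over 10 class sums, were 4.51 ± 0.27 (SE) for Top2a, 4.66 ± 0.31 for Ube2c and 4.18 ± 0.39 for Ccnb2 (quasi-likelihood test of edgeR, with p adjusted by Benjamini-Hochberg = 5.44e-11, 2.19e-10 and 3.08e-08).

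Of the 22 strict mitotic genes Bub1 did not pass the count filter, and the other 21 were called higher in microglia than in monocyte-derived cells, with a median log2 difference of 4.17. Since a gene can pass the filter through the class where it is high, this count is a description. Over all 8945 genes tested 39.5% were called, 20.1% higher and 19.4% lower, with a median of 0.02. Nusap1, a spindle microtubule protein, had the widest difference among genes with more than 3 monocyte-derived UMIs (5.94 ± 0.61), and Cenpe, a kinetochore motor (4.95 ± 0.60), and Cdk1 (4.60 ± 0.36) were also among the widest. Nusap1 had only 1 and 3 UMIs in the monocyte-derived sums and Cenpe 7 and 1, so their folds lie near the floor. Plk1 and Kif11, the spindle motor, had only 2 UMIs each over both monocyte-derived sums and are given no fold. Mki67, the proliferation antigen Ki-67, differed less: it was at 28.5 and 34.2 CPM in microglia and 11.6 and 12.2 in monocyte-derived cells (1.22 ± 0.24, adjusted p = 0.000343). At least 1 Mki67 UMI was seen in 9.23% and 6.60% of microglia and 7.94% and 6.98% of monocyte-derived cells, while Top2a was seen in 12.7% and 16.0% against 2.02% and 2.22%.

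The 6 wider genes supplied 77.1% and 79.9% of all mitotic UMIs in monocyte-derived cells but 38.7% and 35.8% in microglia. Of these, 5 of 6 were higher in microglia, with a median log2 difference of 0.96. Ube2s, a partner of Ube2c, was at 126 and 111 CPM in microglia and 99.9 and 96.5 in monocyte-derived cells and was not called (0.15 ± 0.15).

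S-phase genes were also higher in microglia, with a smaller median than the strict mitotic list. Of 14 tested, 13 were called higher, with a median log2 difference of 1.95; Mcm4 was the exception (-0.01 ± 0.42), and Cdc6, the helicase loader, did not pass the filter. Rrm2, the small subunit of ribonucleotide reductase, was at 20.1 and 42.7 CPM in microglia, 15.7 and 26.8 in dual-marker cells and 1.23 and 1.30 in monocyte-derived cells (microglia against monocyte-derived 4.33 ± 0.42, adjusted p = 5.79e-08). Mcm5 was at 20.7 and 32.0 in microglia and 3.88 and 3.33 in monocyte-derived cells (2.67 ± 0.35). Tyms, thymidylate synthase, was at 20.7 and 47.0 against 6.74 and 9.70 (1.74 ± 0.28). Pcna had a small difference, at 54.4 and 102.5 against 41.5 and 49.2 (0.51 ± 0.17, adjusted p = 0.0224).

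Among the growth-linked genes, Stmn1, a tubulin-binding protein, separated the classes while the chromatin genes did not. Stmn1 was at 200.2 and 249.9 CPM in microglia, 148 and 189 in dual-marker cells and 13.1 and 7.68 in monocyte-derived cells (4.27 ± 0.23, adjusted p = 9.11e-12). Tubb5, a tubulin, was higher by 0.70 ± 0.16. The histone variant gene H2afz was at 463 and 406 in microglia and 524 and 355 in monocyte-derived cells (-0.17 ± 0.15), and Hmgb2, a DNA-bending protein, at 253 and 222 against 248 and 229 (-0.15 ± 0.16). Neither passed the test, and their ranges overlapped between classes. Growth-linked genes made up 51.4% to 57.3% of member UMIs in microglia and 74.1% to 77.6% in monocyte-derived cells. Counted over plain totals instead of TMM-scaled ones, the share of called genes over the whole table that were higher moved from 50.9% to 62.6%, and 41 members were again called higher.

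**Figure D1:**
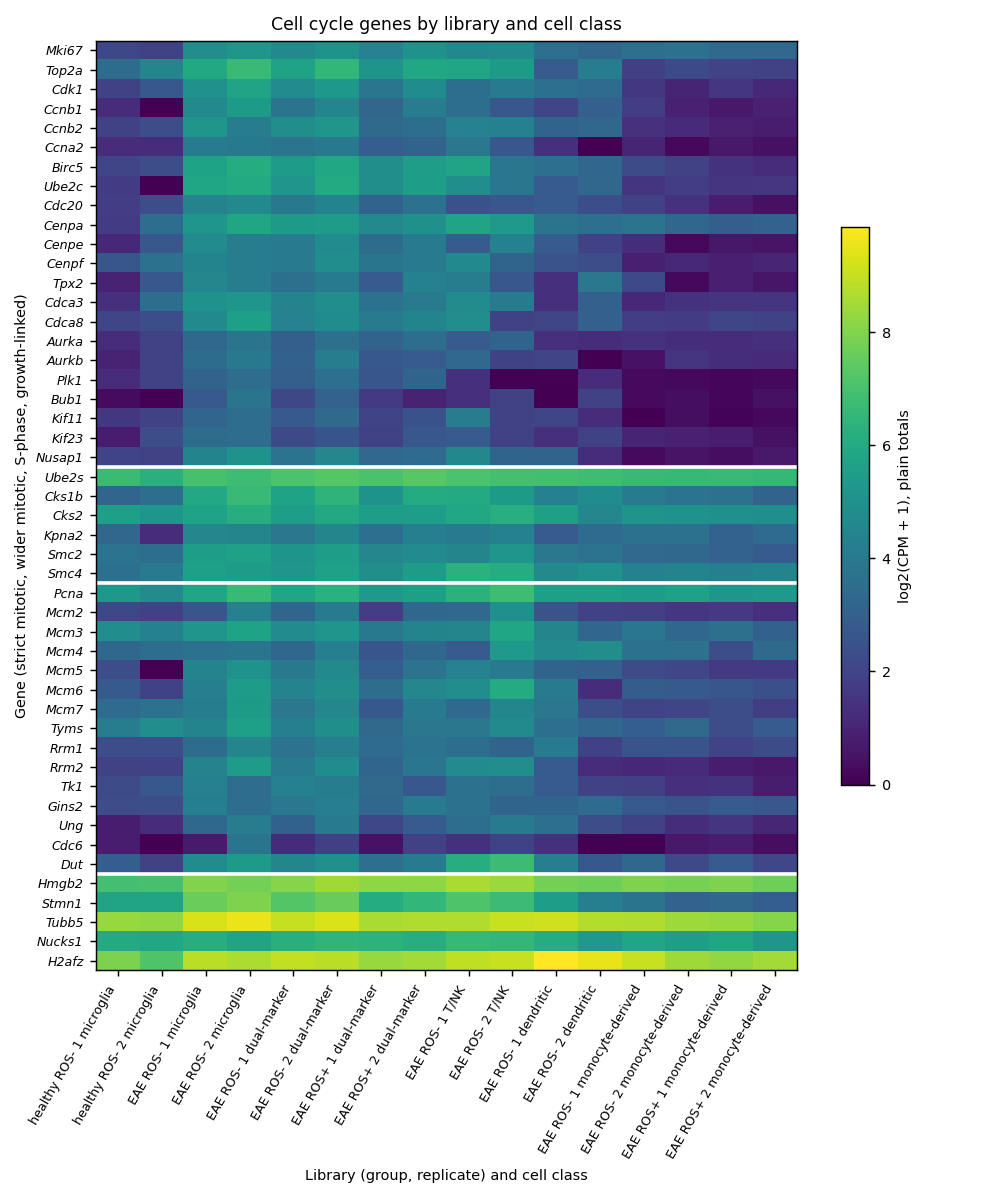
Level of each of the 48 genes (rows) in each library and cell class (columns) as log2(CPM + 1) over plain totals; white lines divide strict mitotic, wider mitotic, S-phase and growth-linked genes. Most strict mitotic genes are dark in monocyte-derived cells of all 4 EAE libraries and in healthy microglia, while Ube2s, Hmgb2, Tubb5 and H2afz are bright in every column.

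Dual-marker and T/NK-marked cells also exceeded monocyte-derived cells in most members. Of 46 members tested, 42 were higher in dual-marker than in monocyte-derived cells (median log2 difference 2.23; 32.5% of all genes were called and 16.4% were higher), among them Top2a (4.29 ± 0.23), Ube2c (4.30 ± 0.25), Nusap1 (5.33 ± 0.51) and Stmn1 (3.89 ± 0.21). In T/NK-marked cells 31 of 46 were higher (19.8% of all genes were called, 10% higher and 9.8% lower), and 16 when every cell with both lists went to the list with more UMIs. That rule leaves the T/NK-marked cells the same and changes the reference, since 276 and 141 dual-marker cells join the monocyte-derived cells. Of the 46 members, these were among the 31 called by the first rule. The S-phase genes Dut (3.62 ± 0.38) and Rrm2 (4.24 ± 0.51) and the mitotic genes Top2a (3.85 ± 0.36), Ube2c (3.22 ± 0.50) and Nusap1 (5.40 ± 0.80). Dut was at 69.3 and 109.0 CPM there, against 9.19 and 3.48 in monocyte-derived cells. Both Nusap1 values rest on 1 and 3 monocyte-derived UMIs.

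Few members were called between dendritic cells, at sums of only 70 and 95 cells, and monocyte-derived cells. Log2 differences lay above 0 in 42 of 46 and below 0 in 4. Their median was 0.98, against 0.01 over all genes. Of 46 tested, 6 were higher (12.7% of all genes were called, 7.52% higher and 5.19% lower): Nusap1 (3.57 ± 1.11), Cdk1 (2.81 ± 0.58), Ccnb2 (2.45 ± 0.65), Top2a (1.88 ± 0.51), Stmn1 (1.58 ± 0.38) and H2afz (0.91 ± 0.15). Several of these calls rest on few UMIs: Nusap1 had 5 and 1 in dendritic cells against 1 and 3 in monocyte-derived cells. Cdk1 had 7 and 7 dendritic UMIs and Ccnb2 5 and 6. No S-phase member was called of 14 by edgeR. H2afz was at 933 and 737 CPM in dendritic cells, above both values of every other class. The dendritic calls depend on the monocyte-derived reference. When every cell with both lists went to the list with more UMIs, the dendritic cells stayed the same and dual-marker cells joined the monocyte-derived ones. By edgeR 2 members were then called, and Top2a and Stmn1 turned to -0.30 and -0.38 (adjusted p = 0.745 and 0.582).

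Microglia of EAE also held more cells with several mitotic UMIs. A cell with 3 or more UMIs of the 22 strict mitotic genes is called a mitotic-transcript cell here. In EAE ROS- microglia these were 47 of 260 cells (18.1%, exact Clopper-Pearson 95% interval 13.6% to 23.3%) and 21 of 106 (19.8%, 12.7% to 28.7%). In healthy microglia they were 6 of 1748 (0.343%, 0.126% to 0.746%) and 4 of 184 (2.17%, 0.595% to 5.47%). In EAE ROS- monocyte-derived cells they were 13 of 642 (2.02%, 1.08% to 3.44%) and 12 of 989 (1.21%, 0.628% to 2.11%). The intervals of the EAE ROS- microglia did not meet those of either other set; they cover counting error only, and with 2 libraries against 2 an exact permutation test could not pass 0.05.

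Depth differed among these classes, so each cell was also thinned to 1500 UMIs. Median depths before thinning were 5402.5 and 3921 UMIs in EAE ROS- microglia, 7333 and 6464 in monocyte-derived cells and 2179 and 3520 in healthy microglia. After thinning the shares were 11.5% and 15.1% in EAE ROS- microglia, 0.156% and 0% in monocyte-derived cells and 0.194% and 1.14% in healthy microglia, after 204 and 9 shallower healthy cells were left out. EAE ROS- microglia stayed above both. The choice of list matters here: with all 28 mitotic genes, 32.7% and 29.2% of microglia and 26.9% and 22.1% of monocyte-derived cells had 3 or more UMIs, and with a threshold of 2 UMIs the mean difference turned to -0.61 percentage points.

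Cells were counted in the same way for S-phase UMIs. In EAE ROS- microglia 17.7% (13.3% to 22.9%) and 26.4% (18.3% to 35.9%) had 3 or more UMIs of the 15 S-phase genes, against 8.26% and 5.97% of monocyte-derived cells and 1.26% and 1.63% of healthy microglia. Dual-marker cells stood at 38.5% and 46.1% and T/NK-marked cells at 51.1% and 50.0%, with intervals of 35.8% to 66.3% and 32.9% to 67.1% for the latter. After thinning, S-phase shares fell to 3.08% and 10.4% in microglia, 2.22% and 19.4% in T/NK-marked cells and 0% and 0.202% in monocyte-derived cells. The T/NK-marked replicates, alike before thinning, lay far apart after it. Strict mitotic shares of T/NK-marked cells were 31.1% (18.2% to 46.6%) and 11.1% (3.11% to 26.1%), and of dendritic cells 5.71% and 5.26%. Thinned, they were 4.44% and 2.78% in T/NK-marked cells and 1.43% and 0% in dendritic cells, and rest on very few cells. The T/NK-marked cells with 3 or more strict mitotic UMIs had median depths of 30663.5 and 30071 UMIs, against 5793 and 5628 in the others.

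**Figure D2:**
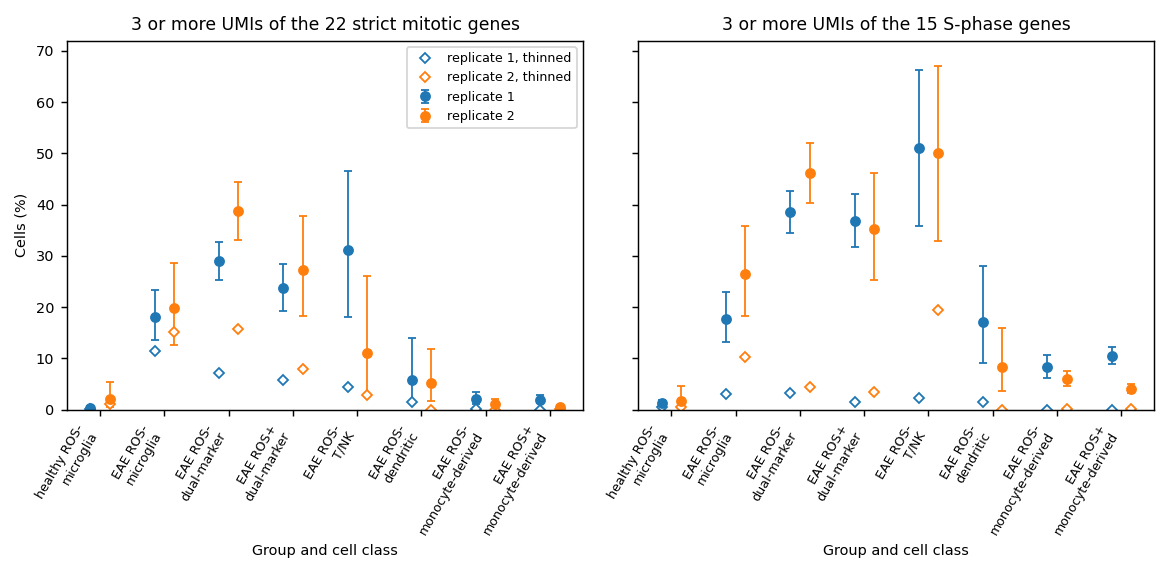
Percent of cells with 3 or more UMIs of the strict mitotic list (left) and the S-phase list (right) by group, class and replicate; filled circles are all cells with exact 95% intervals and open diamonds are cells thinned to 1500 UMIs. Microglia of EAE ROS- lie at 18.1% and 19.8% for the strict list, above monocyte-derived cells and healthy microglia, and thinning lowers dual-marker cells more than microglia.

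Most mitotic-transcript cells were dual-marker cells: 169 of 250 and 115 of 157 in the EAE ROS- libraries, and 83 of 120 and 24 of 40 in the EAE ROS+ libraries. Their share among dual-marker cells was 28.9% and 38.7% in ROS- and 23.7% and 27.3% in ROS+. Dual-marker cells were also the deepest of the classes compared in ROS- (medians 10262.5 and 9985 UMIs), and after thinning the shares were 7.19% and 15.8% in ROS- and 5.71% and 7.95% in ROS+. They were then divided by the leading marker list. With more microglial than monocyte-derived UMIs, 34.1% and 42.9% of ROS- cells were mitotic-transcript cells (11.7% and 25.0% thinned), and with the reverse 23.2% and 34.0% (2.17% and 5.67% thinned). The latter cells were the deeper, at medians of 12045.5 and 14558 against 9185.5 and 5823 UMIs. Droplets that hold more than 1 cell can carry both lists; no doublet caller was run, and their part in the dual-marker class was not tested.

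S-phase and mitotic UMIs met in the same cells. In EAE ROS- dual-marker cells 74.6% and 68.7% of mitotic-transcript cells also had 3 or more S-phase UMIs, against 23.9% and 31.9% of the other cells. In EAE ROS- microglia the same shares were 40.4% and 47.6% against 12.7% and 21.2%. Mitotic-transcript cells were deeper than others in dual-marker cells, at medians of 16600 and 12142 against 8989 and 8226.5 UMIs, and close in microglia, at 5564 and 3938 against 5213 and 3907.

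Within microglia and dual-marker cells together, levels in mitotic-transcript cells were compared with those in the remaining cells of the same library, for genes that did not choose the cells. The median ratio over EAE libraries was 2.21 over the 15 S-phase genes, of which 9 were above 2. Rrm2 stood out at 16.7 in the 2 libraries where it could be computed: it was at 37.3 and 63.1 CPM inside and 2.82 and 3.13 outside in EAE ROS- libraries. Ung, a uracil-DNA glycosylase, had the lowest ratio, 0.865, with 6.76 and 14.4 CPM inside and 8.10 and 16.1 outside in the same libraries. Mcm5 had a ratio of 2.34 and Tyms 3.37, while Pcna was at 1.54. The wider mitotic genes had a median of 3.87. Among growth-linked genes Stmn1 was 8.46 times as high, and Hmgb2 2.11 times, from 1.78 to 2.88 across libraries. The other mitosis genes, which are not members, had a median of 9.65, from Pttg1 (securin, 0.998) to Hmmr (27.0, in 1 library). G1 and S-entry regulators had a median of 1.30, with Cdkn2c, an inhibitor of Cdk4 and Cdk6, highest at 5.81. These ratios describe cells picked by transcripts of the same programme and carry no test.

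Microglia of the ROS- gate had higher cell cycle transcripts in EAE than in health. Ube2c was at 54.4 and 64.1 CPM in EAE and 2.26 and 0 in healthy microglia, where the second library had 0 UMIs. Mki67 was at 28.5 and 34.2 against 3.39 and 2.73, and Top2a at 63.5 and 98.3 against 10.2 and 21.9. Ccnb2 was at 34.3 and 17.1 against 2.71 and 4.10. No healthy value of these genes reached an EAE value. The log2 differences were 5.14 ± 0.48 for Ube2c, 3.43 ± 0.47 for Mki67, 2.75 ± 0.37 for Top2a and 3.45 ± 0.52 for Ccnb2 (edgeR, adjusted p = 7.38e-08, 1.52e-05, 1.08e-05 and 5.12e-05).

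By list, 19 of 22 strict mitotic, 4 of 6 wider, 11 of 15 S-phase and 4 of 5 growth-linked genes were called higher, 38 in all. Plk1, Bub1 and Kif11 of the strict list and Mcm2 and Cdc6 of the S-phase list did not pass the count filter. A gene could pass it through the EAE libraries alone, so these counts are a description. Ube2c had 10 and 0 UMIs in the healthy sums and Ccnb1 6 and 0. Ung had 3 and 1, Tpx2 4 and 4 and Cenpe 5 and 4 there, so their folds below lie near the floor. Over all 8489 genes 22.1% were called, 12.3% higher and 9.9% lower. Ccnb1 (4.92 ± 0.59), Birc5, the passenger-complex protein survivin (4.31 ± 0.42), Ung (4.00 ± 0.73), Cdk1 (3.80 ± 0.49), Tpx2, a spindle assembly factor (3.79 ± 0.65), and Cenpe (3.77 ± 0.62) were among the strongest. In S phase, Rrm2 was at 20.1 and 42.7 against 2.71 and 2.73 CPM (3.57 ± 0.53), and Mcm5 at 20.7 and 32.0 against 4.07 and 0 (3.13 ± 0.55). Tyms was not called (0.77 ± 0.42, adjusted p = 0.203): it was at 20.7 and 47.0 in EAE and 17.0 and 27.3 in healthy microglia, which overlap. Pcna was at 54.4 and 102.5 against 37.1 and 26.0 (1.34 ± 0.31). Stmn1 was at 200.2 and 249.9 against 53.1 and 53.3 (2.26 ± 0.25), H2afz at 463 and 406 against 244 and 142 (1.35 ± 0.26), and Hmgb2 at 253 and 222 against 119 and 126 (1.17 ± 0.24). Nucks1, Cks2, Mcm4, Tyms and Ube2s did not pass the test.

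The count of 38 rests on both healthy libraries. It was 0 without healthy replicate 2, when 0 genes of the whole table were called, 8 without healthy replicate 1 and 23 without EAE ROS- replicate 1, while the median log2 difference stayed between 2.18 and 2.85. Over plain totals the called genes of the table turned from 55.3% to 37.2% higher, with a median of -0.28, and 35 members were still called higher.

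Summed over all cells of a library, 37 of 48 members were higher in EAE ROS- than in healthy ROS- (34% of 13631 genes were called and 19.9% were higher): 9 of 15 S-phase, 24 of 28 mitotic and 4 of 5 growth-linked genes. In such sums, fewer cells of a type and less RNA per cell cannot be told apart. Mki67 was at 20.5 and 18.8 against 3.38 and 3.28 CPM (3.04 ± 0.31), and Cenpa, the centromeric histone, differed by 3.27 ± 0.51. Bub1, a spindle checkpoint kinase, had 38 and 37 UMIs against 1 and 0 and is given no fold. Tyms was at 14.3 and 17.1 against 16.9 and 28.4 (0.06 ± 0.31) and did not pass the test. Over plain totals the called genes of the table went from 58.7% to 29.7% higher, with a median of -0.48, and 26 members were called. Without healthy replicate 1 there were 18.

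**Figure D3:**
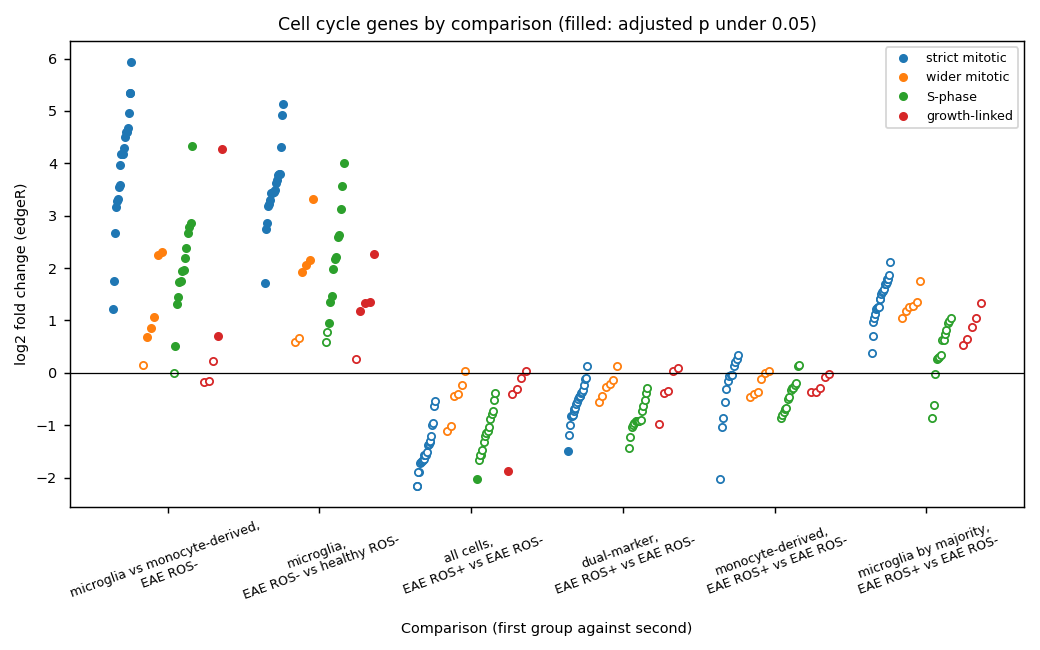
Log2 fold change of each member that passed the filter (points, coloured by list, in rising order within each list) in 6 comparisons; filled points have an adjusted p under 0.05. Strict mitotic genes lie above 1 in the 2 comparisons of microglia at left and below 0 in all cells of EAE ROS+ against ROS-; the Plk1 and Kif11 points at far left rest on 2 monocyte-derived UMIs each.

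Between the ROS gates of EAE, sums over all cells lay lower in ROS+ for most members, and few passed the test. Log2 differences lay below 0 in 46 of 48 members and above 0 in 2. All 15 S-phase and all 22 strict mitotic genes lay below 0. The members' median log2 difference was -1.26, against -0.01 over all genes. The edgeR test called 6 of 48 members lower and 0 higher, where 2.16% of all genes were called, 2.04% lower and 0.125% higher. Beside Ccnb2, Rrm2, Stmn1 and Mcm5, these were Cdc20 (10.9 and 8.48 CPM in ROS- against 3.08 and 1.42 in ROS+; -1.90 ± 0.40, adjusted p = 0.0446) and Birc5 (30.9 and 22.3 against 10.4 and 5.37; -1.56 ± 0.32, adjusted p = 0.044). In each of these genes both ROS+ values lay below both ROS- values. Mki67 (20.5 and 18.8 against 12.6 and 11.3), Top2a (34.9 and 34.7 against 12.6 and 8.03) and Ube2c (25.3 and 23.3 against 10.6 and 6.15) were not called, at adjusted p = 0.328, 0.0647 and 0.0883. Hmgb2 (265 and 267 against 263 and 222), Pcna (51.9 and 61.6 against 36.7 and 40.3), Tyms (14.3 and 17.1 against 5.85 and 7.05) and H2afz (517 and 415 against 312 and 355) were not called either. The classes moved with the gate: microglia and dual-marker cells made up 16.1% and 36.2% of ROS- replicate 1 and 6.93% and 19.4% of replicate 2, while dual-marker cells were 20.1% and 3.94% of the ROS+ libraries. The part of this shift in the sums was not tested. More members were called without the count filter and with a replicate block, as listed in the closing section. The 6 calls became 0 without EAE ROS+ replicate 2, 1 without EAE ROS- replicate 1, 2 without either healthy library and 10 without EAE ROS- replicate 2, and 18 over plain totals, where the median over all genes was -0.18.

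Within classes the gates differed little by test when replicate numbers were not taken to pair libraries. In dual-marker cells Ccnb2 was lower in ROS+, at 9.78 and 10.9 against 28.2 and 35.5 CPM (-1.49 ± 0.23, adjusted p = 0.0323), as the only call among 48 members, where 0.952% of all genes were called. That call rests on the gate for the class: it was 0.19 on the log2 scale (adjusted p = 0.913) with the marker threshold set per 10000 UMIs, and the median over members turned from -0.56 to 0.43. It was also lost without replicate 1 of either EAE gate, and 5 members were called without EAE ROS+ replicate 2. In monocyte-derived cells 0 of 38 members were called by edgeR or DESeq2, where 0.00857% of all genes (1 of 11668) were called and 454 had an unadjusted p under 0.05. Cdc20 was at 2.86 and 1.74 CPM in ROS- and 0.681 and 0.371 in ROS+ (-2.03 ± 0.59, adjusted p = 0.999), and Ube2c at 1.84 and 2.46 against 1.91 and 1.93. Top2a was at 2.66 and 3.62 against 3.07 and 2.89. The gates overlapped in Ube2c and Top2a and did not in Cdc20.

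Microglia could not be compared between gates by the first marker rule, since the ROS+ libraries held 3 each. A rule added after the data were seen called a cell microglial if it hit that list and had more microglial than monocyte-derived UMIs, and kept no dual-marker class. It gave 31 and 21 ROS+ microglia, with 367294 and 144196 UMIs, and 566 and 262 ROS- microglia. By the first rule, 28 and 18 of the ROS+ cells were dual-marker cells, against 308 and 156 of the ROS- cells. Their microglial markers were at 2429 and 2295 CPM in ROS+ and 2618 and 3165 in ROS-, and monocyte-derived markers at 681 and 943 against 646 and 729. Mitotic-transcript cells were 18 of 31 (58.1%, 39.1% to 75.5%) and 8 of 21 (38.1%, 18.1% to 61.6%) in ROS+, against 26.9% (23.2% to 30.7%) and 33.6% (27.9% to 39.7%) in ROS-. The interval of ROS+ replicate 1 lay above that of ROS- replicate 1 and met that of ROS- replicate 2, and the interval of ROS+ replicate 2 overlapped both. Median depths were 10047 and 6345 UMIs in ROS+ and 6902 and 4954.5 in ROS-, and after thinning the shares were 45.2% and 23.8% against 11.7% and 21.0%. All 18 and 8 ROS+ mitotic-transcript cells were dual-marker by the first rule. Among those dual-marker cells alone, shares were 64.3% and 44.4% in ROS+ against 34.1% and 42.9% in ROS-. Thinned, they were 50.0% and 27.8% against 11.7% and 25.0%. The part of this mix of classes in the gate difference was not tested.

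In these microglia, several mitotic genes had higher levels in both ROS+ libraries, without passing the test. Ube2c was at 305 and 222 CPM in ROS+ and 56.5 and 111 in ROS-, Mki67 at 119.8 and 111 against 33.0 and 47.7, and Cdc20 at 95.3 and 76.3 against 23.6 and 32.6, with no overlap. Top2a was at 259 and 173 against 74.7 and 145, also without overlap. Ccnb2, at 117 and 41.6 against 43.2 and 47.1, and Rrm2, at 79.0 and 41.6 against 23.4 and 51.5, overlapped. Without a replicate term, the edgeR test called 0 of 47 members and 0% of all 8990 genes here, with 512 genes under 0.05 before adjustment. In that fit the lowest adjusted p of a member was 0.0554, shared by Ube2c (1.78 ± 0.31), Mki67 (1.60 ± 0.30), Birc5 (1.50 ± 0.28), Cdca8 and Nucks1. By other settings 2 members passed in DESeq2, 16 in edgeR without the count filter, and more with a replicate block, as listed in the closing section. Members called were 16 without EAE ROS- replicate 2 or healthy replicate 2, 12 without EAE ROS+ replicate 2, and 10 without healthy replicate 1.

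The gate difference itself was tested between microglia and monocyte-derived cells of the same rule. In these monocyte-derived cells Ube2c was at 5.75 and 3.04 CPM in ROS+ and 8.74 and 9.66 in ROS-. They also held microglial markers at 153 and 81.6 CPM in ROS+ and 488 and 267 in ROS-. By the first marker rule, which sets dual-marker cells apart, Ube2c of monocyte-derived cells overlapped between the gates. Fitted over 8 class sums with library as a term, 30 of 48 members had a higher ROS+ to ROS- difference in microglia and 0 a lower one, where 1.06% of 12307 genes were called, 0.959% higher and 0.106% lower. The members' median was 1.84, against -0.12 over all genes. By list these were 18 of 22 strict mitotic, 5 of 6 wider, 3 of 15 S-phase and 4 of 5 growth-linked genes. The widest called were Cdc20 (3.62 ± 0.50, adjusted p = 3.63e-10), Tpx2 (3.00 ± 0.52), Ccnb2 (2.91 ± 0.43), Plk1 (2.76 ± 0.71), Cdca3 (2.73 ± 0.41), Cenpe (2.69 ± 0.48), Ube2c (2.67 ± 0.31) and Birc5 (2.64 ± 0.32). The S-phase calls were Rrm2 (2.13 ± 0.49), Tk1 (2.01 ± 0.53) and Mcm5 (1.98 ± 0.52), and Pcna (0.54 ± 0.32) and Tyms (1.35 ± 0.45) were not called. Several of these folds lie near the floor. In ROS+ replicate 2, Cdc20 had 11 microglial and 7 monocyte-derived UMIs and Plk1 7 and 4. Microglia there had 6 UMIs of Rrm2, 2 of Tk1 and 8 of Mcm5. Tk1 was at 13.9 CPM there, below both ROS- values of microglia (25.7 and 21.3). Stmn1 (2.19 ± 0.26), Hmgb2 (0.97 ± 0.24), H2afz (0.87 ± 0.24), Mki67 (1.88 ± 0.34) and Top2a (1.96 ± 0.30) were called. Only 2 residual degrees of freedom stand behind these p-values, with spread shared across genes. With monocyte-derived cells taken by the first marker rule instead, a reference chosen after the data were seen, 14 of 48 members were called, 14 higher and 0 lower, with a median of 1.26. Cdc20 (3.60), Tpx2 (2.91), Birc5 (2.39), Mki67 (1.84), Ube2c (1.79), Stmn1 (1.12), Hmgb2 (0.98) and H2afz (0.93) were called there, at adjusted p from 5.23e-05 to 0.0422. Ccnb2 (1.71), Top2a (1.03), Rrm2 (1.58), Mcm5 (1.41), Plk1 (1.85), Cdca3 (1.26) and Cenpe (1.85) were not, at adjusted p from 0.41 to 0.941. The count of 30 was 8 without EAE ROS+ replicate 1, 13 without EAE ROS- replicate 1 and 16 with DESeq2, and the members' median stayed between 1.44 and 2.00 over these and the other libraries left out.

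**Figure D4:**
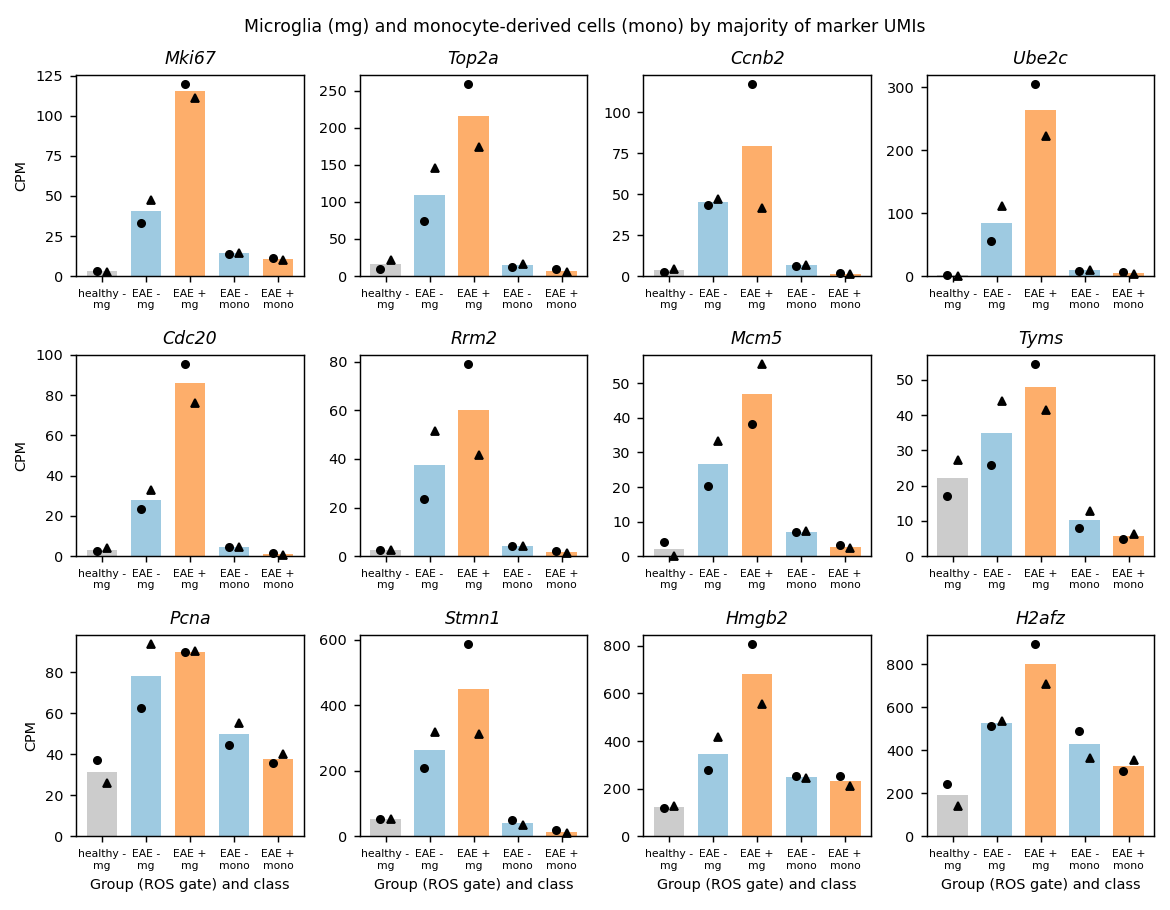
CPM of 12 members in microglia (mg) and monocyte-derived cells (mono) by the majority rule; bars are means of 2 libraries, circles are replicate 1 and triangles replicate 2, and + and - are the ROS gates. Ube2c stands at 305 and 222 CPM in ROS+ microglia, above both ROS- values, and at 5.75 and 3.04 in ROS+ against 8.74 and 9.66 in ROS- monocyte-derived cells, which hold 153 and 81.6 against 488 and 267 CPM of microglial markers.

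The remaining genes of the pathway, from lists of 20 G1 and S-entry regulators, 20 replication genes and 26 mitosis genes, were read in the same fits. Against monocyte-derived cells of the ROS- gate, where 39.5% of all genes were called, 20.1% higher and 19.4% lower, microglia had 13 of 16 tested mitosis genes higher and 1 lower, with Hmmr (5.52 ± 0.48), Prc1, a midzone protein (4.64 ± 0.56), and Ndc80, a kinetochore protein (4.60 ± 0.78), the widest. Replication genes were higher in 6 of 15, led by the chromatin remodeller Hells (4.03 ± 0.50), Uhrf1 (2.95 ± 0.58) and the histone chaperone Asf1b (2.51 ± 0.44). G1 and S-entry regulators split, with 5 higher and 4 lower of 15. Cyclin D2 (Ccnd2) was lower in microglia (-3.67 ± 0.41), as was the Cdk inhibitor Cdkn1a (-2.28 ± 0.19), while Cdkn2c was higher (3.35 ± 0.43). Dendritic cells showed Ccnd2 (2.55 ± 0.22), Ccnd1 (1.97 ± 0.27) and Ccnd3 (1.15 ± 0.24) higher than monocyte-derived cells, and 2 of 16 mitosis genes higher, where 12.7% of all genes were called and 7.52% were higher.

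Between microglia of EAE ROS- and health, where 22.1% of all genes were called and 12.3% were higher, 9 of 11 tested mitosis genes were higher, led by Hmmr (3.81 ± 0.62), Prc1 (3.35 ± 0.61) and Racgap1 (3.12 ± 0.60). Of 10 replication genes 6 were higher, with Hells (3.96 ± 0.58) and Asf1b (2.85 ± 0.57) the widest. Of 12 G1 and S-entry regulators E2f1 (2.26 ± 0.45), Cdkn2c (1.49 ± 0.44) and Cdk4 (0.85 ± 0.25) were higher. In the test of the gate difference between classes, Hmmr (2.74 ± 0.51), Ncapd2 (2.60 ± 0.68), Spc24 (2.52 ± 0.45) and Prc1 (2.35 ± 0.52) were called among 25 mitosis genes, where 1.06% of all genes were called, and 0 of 20 replication and 0 of 20 G1 and S-entry genes.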

How the data were processed

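Single-cell 3' libraries (10x Chromium) were compared by UMI counts, which the authors deposited without normalization as 1 matrix per library. Cell Ranger 2.0.1, Seurat 3, R 3.4.2 and mm10 are named in the submitters' processing notes, without roles. The files held 9079 barcodes, where the series text gives 8701 cells. A barcode was kept when it held 200 or more genes and no more than 10% of its UMIs were mitochondrial (9078 barcodes). No doublet caller was run.

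A marker list was hit at 3 UMIs over 2 genes; of 52 marker genes listed, 51 were found. T/NK, neutrophil, B cell, endothelial and dendritic hits took precedence in that order, and a cell with both remaining lists was dual-marker. A class named here is a range of marker UMIs, not an annotation of the authors. Counts were summed per library and class (at least 20 cells) and tested with edgeR 4.0.16 (quasi-likelihood test after TMM scaling and filterByExpr, called at 0.05 after Benjamini-Hochberg adjustment over all genes tested) in R 4.3.3. Fits of all cells and of microglia included every group with a sum. Classes within EAE ROS- were fitted with library as a term. CPM are over plain totals and log2 differences over TMM-scaled ones. Shares carry exact Clopper-Pearson 95% intervals, and cells were thinned to 1500 UMIs with a fixed seed. DESeq2 1.42.0, plain totals, no count filter, other marker rules, other UMI thresholds, a replicate term and each library left out were tried as alternatives. Other software was Python 3.11.15, numpy 2.4.6, pandas 2.3.3, scipy 1.17.1 and matplotlib 3.10.9. Tested on simulated counts with 200 genes changed 4-fold, the edgeR script recovered 99% in all cells, 91% in microglia of EAE against healthy, 95% in monocyte-derived cells and 99% in microglia against monocyte-derived cells. In the same order, 4.35%, 2.67%, 7.77% and 6.60% of its calls were false. The simulation gave every gene the same spread and left the lowest genes unchanged, so recovery of low genes was not tested.

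The members and lists were chosen with earlier results of these data known. Genes always named were Mki67, Top2a, Ccnb2, Ube2c, Pcna, Mcm5, Rrm2, Tyms, Stmn1, H2afz and Hmgb2, with up to 8 further called members per comparison by size of the difference and up to 3 called genes of each other pathway list; Ube2s, Tubb5, Bub1, Plk1, Kif11 and further genes singled out in the text were chosen after their values were seen. The majority and ratio marker rules, and the test of the gate difference between classes, were added after seeing the data. Replicate numbers were not taken to pair libraries, since only 2 pairs exist and the labels name no shared animal or day.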

Additional observations from a re-analysis of the deposited data

Results flagged for a closer look

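The effect of the ROS gate differed between microglia and monocyte-derived cells of EAE by the majority rule: 30 of 48 cell cycle genes had a higher ROS+ to ROS- difference in microglia by an interaction test (edgeR, adjusted p under 0.05), and 0 a lower one, where 1.06% of all genes were called and 0.959% were higher. The monocyte-derived cells of that rule held microglial markers at 153 and 81.6 CPM in ROS+ and 488 and 267 in ROS-, and with monocyte-derived cells of the first marker rule as the reference 14 members were called. The ROS+ microglia behind it were 31 and 21 cells, of which 28 and 18 were dual-marker cells by the first rule. In ROS- 308 and 156 of these microglia were dual-marker cells. The part of this mix of classes in the result was not tested. Between the gates within these microglia alone, the edgeR test without a replicate term called 0 of 47 members.

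Cells with neutrophil markers, a class outside the comparisons, also held mitotic transcripts in the EAE ROS+ libraries. Of 47 such cells in replicate 1, 8 (17.0%, exact 95% interval 7.65% to 30.8%) had 3 or more strict mitotic UMIs, and of 54 in replicate 2, 6 (11.1%, 4.19% to 22.6%). The monocyte-derived cells of the same libraries stood at 1.96% and 0.481%. Median depth was 25559 and 11892.5 UMIs in neutrophil-marker cells against 8853.5 and 5382.5 in monocyte-derived cells. After thinning to 1500 UMIs the shares were 2.13% and 3.70% in neutrophil-marker cells and 0% and 0.144% in monocyte-derived cells. The thinned neutrophil-marker shares rest on very few of the 47 and 54 cells. These cells also carried 4853 and 6515 CPM of monocyte-derived markers, and the part of droplets with more than 1 cell was not tested.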

How the results depend on the processing

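Members called in all cells of EAE ROS+ against ROS- (6) became 18 over plain totals, 30 without the count filter and 36 with a replicate block, and 0 to 10 with a library left out. In all cells of EAE ROS- against healthy (37) they ranged from 18 to 38 with a library left out, and in microglia (38) from 0 to 31. In microglia of the majority rule, ROS+ against ROS- (0), they were 2 with DESeq2, 16 without the filter, 23 with the replicate block and 0 to 16 with a library left out. In dual-marker cells (1) they were 2 with DESeq2, 2 over plain totals, 10 without the filter, 14 with the replicate block, 0 with the marker hit at 5 UMIs, 0 per 10000 UMIs, 0 under the ratio rule and 0 to 5 with a library left out. In monocyte-derived cells (0) they were 0 to 1 with a library left out. Dendritic calls (6) became 2 per 10000 UMIs, 3 under the ratio rule and 2 under the majority rule, T/NK calls (31) became 16 under the majority rule, and the calls of the gate difference between classes (30) became 16 with DESeq2, 14 against monocyte-derived cells of the first rule and 8 to 29 with a library left out. The majority and ratio rules leave the dendritic and T/NK-marked cells the same and change the monocyte-derived reference. The cause of these moves was not tested. The replicate block changed no other call count past 1.5 times: it gave 38 in all cells of EAE ROS- against healthy, 38 in microglia and 0 in monocyte-derived cells. Same-numbered EAE libraries deviated together at a correlation of 0.46 in all cells, 0.23 in dual-marker and 0.36 in monocyte-derived cells, over 2 pairs.

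The mean difference in cells with 3 or more UMIs of all 28 mitotic genes, microglia minus monocyte-derived cells of EAE ROS-, was 6.42 percentage points. It was 15.7 thinned, -0.61 at 2 UMIs, 14.6 at 5 UMIs, 10.7 with the marker hit at 5 UMIs and 17.3 with the strict list. Between EAE ROS- and healthy microglia it was 27.4, and 15.4, 33.5, 18.9, 31.6 and 17.7 under the same settings. For S-phase genes these differences were 14.9 (6.63 thinned) and 20.6 (6.21 thinned, 11.9 at 5 UMIs). Among 969 settings of named genes, 833 kept the direction and the call, 133 kept the direction and lost the call, and 3 reversed: Ccnb2 in dual-marker cells per 10000 UMIs (0.19), and Top2a (-0.30) and Stmn1 (-0.38) in dendritic cells under the majority rule. Leaving out a library from the fits of classes within EAE ROS- leaves no residual degrees of freedom and was not run. The planned comparison of microglia between the ROS gates was not run, with 3 cells in each EAE ROS+ library. Healthy replicate 2, at 915197 UMIs, limits what low genes can show.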
